A study of Homo sapiens with 4 samples.

Results

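GATA4 occupancy was examined at 6 genes that mark basal-like pancreatic cancer: TP63, KRT5, KRT6A, KRT14, KRT17 and S100A2. From a list of GATA4 intervals (stretches of DNA called as occupied), those that touch a window of the genes and 50 kb on each side were taken. The 6 genes fall into 4 such windows, or loci, because KRT6A and KRT5, and likewise KRT14 and KRT17, are close neighbours. The windows, 746 kb together, held 5 of the 21308 intervals of the list (0.0235%), or 6.7 intervals per Mb. Their chromosomes held 6.95 (chromosome 3), 4.78 (chromosome 12), 13.4 (chromosome 17) and 5.57 (chromosome 1) per Mb. The pooled density was thus within the range of the chromosomes. The surrounding 5 Mb on each side held more than the chromosomes did. The values were 35.1 (TP63), 6 (KRT6A and KRT5), 16.6 (KRT14 and KRT17) and 20.2 (S100A2) per Mb. The pooled density was near the lower end of these. TP63 had 2, S100A2 had 3, and the 2 keratin loci, with 4 of the 6 genes, had 0.

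GATA4 was mapped by CUT&RUN, in which an antibody bound in permeabilised cells directs a nuclease to cut out the DNA at a protein's sites. The 4 libraries formed 1 group: PaTu8988S, an established line from a pancreatic adenocarcinoma, with 500000 cells and 10 ug of the antibody MAB2606 each. The labels give no treatment or genotype and do not say whether the libraries came from separate cultures. The deposited list holds intervals common to the 4 libraries, by position alone, so neither a spread between libraries nor a depth behind an interval can be given, and a control library was not analysed here. The labels and the list hold no expression values, so whether these cells express the 6 genes was not measured.

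Pancreatic ductal adenocarcinoma is commonly divided into a classical type, which keeps endodermal features and expresses GATA6 and related regulators, and a basal-like or squamous type. GATA4, which acts in the developing gut, pancreas and heart, is a DNA-binding regulator that recognises short sequences with GATA at their core. In the basal-like type TP63, above all its short isoform, drives a squamous programme. KRT5 with KRT14 form the keratin filaments of basal epithelial cells, KRT6A and KRT17 are induced in stressed or wounded epithelium, and S100A2 is a calcium-binding protein that p63 can induce.

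A short sequence at the start of TP63, the regulator of the set, is shown as an example of the letters that GATA factors recognise. The RefSeq promoter table (GRCh38.p14, 250 bases before to 50 after each gene start) held 4 promoters of 3 of the member genes: 1 of TP63, 1 of KRT5 and 2 of S100A2. They were searched on both strands for AGATAA, for TGATAA, for AGATAG and for TGATAG. A match was present in 1 of the 4 promoters (25%), the same share as among all promoters of the table (8769 of 35116, 25%). The core letters GATA alone, on either strand, were in 3 of the 4: TP63, KRT5 and 1 of the S100A2 promoters. Among all promoters the share was 49.7%, and 4 promoters, 2 of them of S100A2, are too few to read a difference from. The match in TP63, in capitals, begins at base 8 after the gene start on the gene's own strand (GRCh38.p14 chr3:189631386-189631411, plus strand; these positions are of another build than the intervals).
TP63: cttctatgtcTGATAGcatttgaccc
A match is a description of the letters, and no interval of the list lay there: the nearest were 53.6 kb before the TP63 start and 90.9 kb after it. KRT6A, KRT14 and KRT17 are named only. Sequences of the 5 intervals were not used here.

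TP63 encodes p63, a relative of p53 that specifies basal cells of stratified epithelia, and is the regulator of the set. Its gene span in build hg19 runs from 189349216 to 189615068 on chromosome 3 (266 kb), and its window measures 366 kb. Both intervals of the window lay inside the gene and none in the added flanks. The first ran from 189440108 to 189440540 (432 bp wide), with its centre 91.1 kb after the gene start. The second ran from 189461859 to 189462355 (496 bp wide), 113 kb after the start. The pair thus sat at 34.3% and 42.5% of the gene's length, 21.3 kb apart, within the body of the gene and not near its annotated start. Whether they are exonic or intronic, and how far they lie from the start of the short isoform, was not determined, as an hg19 annotation was not used here.

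The TP63 count read differently against the chromosome and against its surroundings. On chromosome 3, 51.2% of 529 windows of the same length held at least 1 interval, and 28% held at least the 2 seen at TP63; the median of the other windows was 1 (quartiles 0 and 2). Within 5 Mb of the locus, the median of the 26 other windows was 9 (quartiles 7 and 13.75, range 1 to 43), 0 were empty, and 4 held 2 or fewer. The 2 windows that adjoin TP63 held 7 each. Expressed as density, TP63 had 5.47 intervals per Mb, the chromosome 6.95 and the surrounding 5 Mb on each side 35.1, which is 6.42 times the density at TP63. Nearer to the gene the density was lower than 35.1: the 1 Mb before the span held 22 intervals and the 1 Mb after it 20. The gene therefore lay in the lower range of an interval-rich part of chromosome 3. Windows next to each other are not independent, and no p value is given for this or any other comparison with windows.

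Most of TP63 lay in 2 long stretches without an interval. One ran from 189295614 to 189440108 (144 kb) and took in the gene start and the first 34.2% of the gene. The other ran from 189462355 to 189729988 (268 kb) and took in the last 57.4%. Among 353 such stretches within 5 Mb, whose median length was 10.6 kb, they ranked 11th and 4th by length. On the whole of chromosome 3 they ranked 231st and 163rd of 1345, with 17.2% and 12.1% of stretches at least as long. A stretch picked because it contains a given position is more often a long one. The ranks, here and at the other loci, are therefore descriptions. In the RefSeq gene table TPRG1 is the protein-coding gene before TP63 and P3H2 the one after it.

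**Figure D1:**
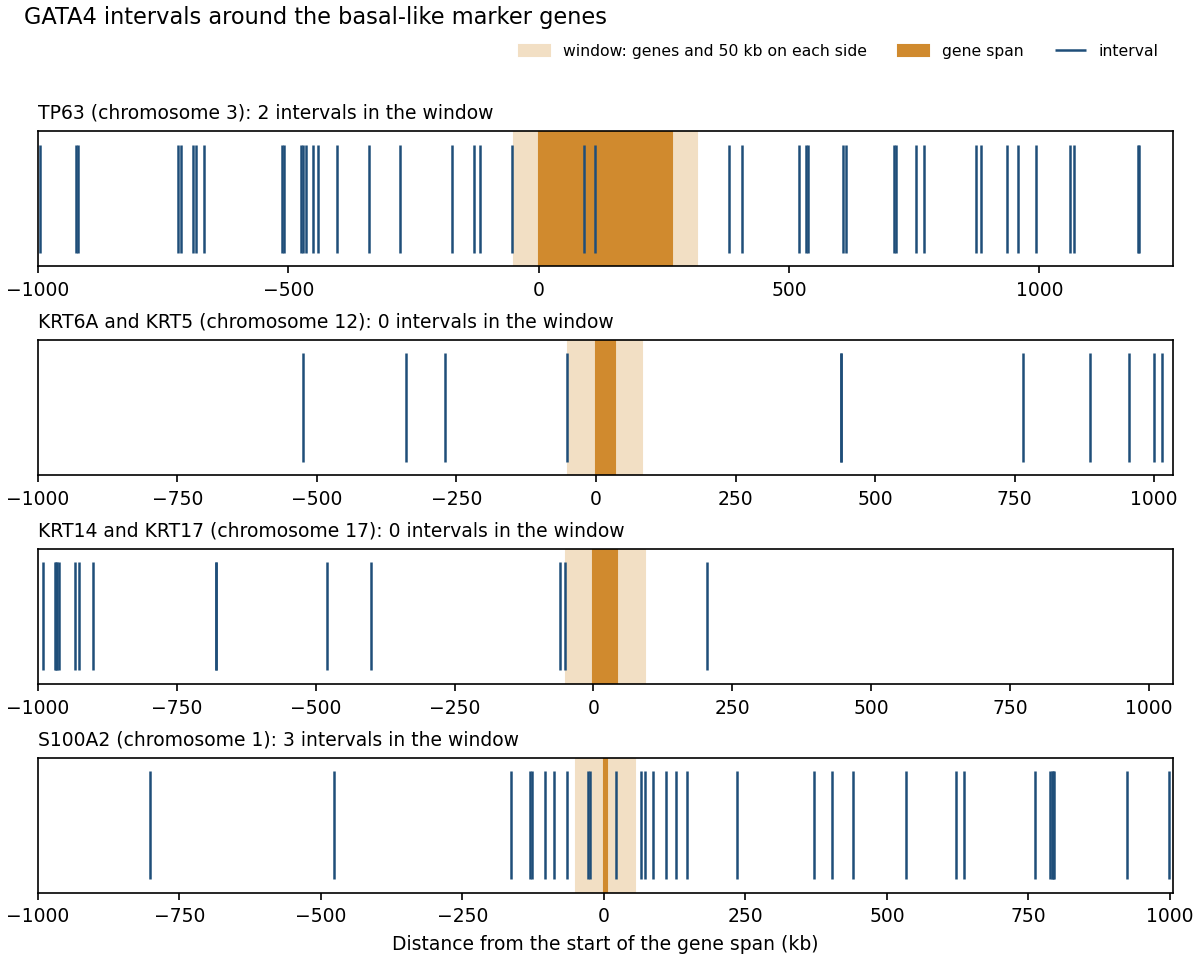
Positions of GATA4 intervals (blue lines, drawn at the interval centre) from 1 Mb before to 1 Mb after each gene span, as distance in kb from the span's lower coordinate; the dark band is the gene span and the light band the window with 50 kb on each side. Both TP63 intervals lie inside the gene, the keratin windows hold 0 (the lines at their lower edges are 1.28 and 1.52 kb outside), and the 3 S100A2 intervals lie on either side of the gene.

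KRT5 and KRT6A, type II keratins, had 0 intervals. Their joint span runs from 52880958 to 52914243 on chromosome 12 (33.3 kb), and the window of 133 kb was empty. An empty window was the commonest finding on this chromosome: 31.1% of 1002 windows of equal length held at least 1 interval, and 690 (68.9%) held 0. Among the 74 other windows within 5 Mb, 38 (51.4%) were empty too. A share of empty windows of this size does not set the locus apart from its chromosome or its surroundings. The adjoining window at lower positions held 1 interval and the one at higher positions 0.

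The stretch without an interval around KRT5 and KRT6A contains the empty window, so it had to exceed 133 kb. Its rank by length therefore adds little to the empty window. This stretch ran from 52829675 to 53318780 (489 kb) and was the 82nd longest of the 639 such stretches of chromosome 12. Within 5 Mb it ranked 5th of 61, where the median was 84.9 kb. The interval that bounds it at lower positions ran from 52829148 to 52829675 (527 bp) and ended 51.3 kb from the span, 1.28 kb outside the window. At the other side the nearest interval began 405 kb from the KRT5 start, at 53318780 (1069 bp wide). KRT5 is on the minus strand, so its start is the upper end of the span, and the nearest interval downstream of that start was 84.6 kb away. The RefSeq gene table places KRT6C and KRT6B, further basal-like keratins of the KRT6 family, directly before KRT6A. Their positions in hg19 were not used, so intervals at these genes were not counted.

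KRT14 and KRT17, type I keratins, also had 0 intervals. Their span runs from 39738531 to 39780882 on chromosome 17 (42.4 kb), in a window of 142 kb. Of 564 windows of chromosome 17, 36.9% held at least 1 interval and 356 (63.1%) were empty. Within 5 Mb, 33 of 70 other windows (47.1%) were empty, with a median of 1 interval. The adjoining windows held 2 at lower and 1 at higher positions. As at the type II keratins, an empty window was common here.

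The stretch without an interval that contains KRT14 and KRT17 ran from 39687009 to 39942941 (256 kb). It ranked 75th of 1074 on chromosome 17 and 12th of 167 within 5 Mb, where the median was 5.38 kb. As it contains the empty window it had to exceed 142 kb, so these ranks add little to the empty window. The nearest interval, from 39686342 to 39687009 (667 bp), ended 51.5 kb before the span and 1.52 kb outside the window. On the other side the nearest began 162 kb after the span, from 39942941 to 39943435 (494 bp). The surroundings were uneven: the 500 kb before the span held 4 intervals, the 500 kb before that 10 and the next 500 kb 33, whereas the 500 kb steps after the span held 1, 0 and 2. The gene table places KRT16, a stress keratin, between KRT14 and KRT17, whose joint span had 0 intervals. It lists KRT9, KRT19 and KRT15 before KRT14.

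S100A2 had 3 intervals, the most of the 4 loci, in the shortest window. The gene runs from 153533587 to 153538306 on chromosome 1 (4.72 kb), on the minus strand, and its window measures 105 kb. None of the 3 touched the gene. One ran from 153505207 to 153506088 (881 bp wide), and its neighbour, 1.49 kb further, ran from 153507573 to 153509169 (1596 bp). These lay beyond the 3' end of S100A2, 27.5 and 24.4 kb from it. The remaining one, from 153555160 to 153555673 (513 bp), began 16.9 kb upstream of the gene's start and was the interval nearest to the start of any member gene whose start was known here. The S100A2 gene itself fell in a stretch of 46 kb without an interval, which ranked 57th of 206 by length within 5 Mb and 561st of 1388 on chromosome 1.

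The S100A2 window was in the upper part of its chromosome by count. Of 2379 windows of chromosome 1, 24.6% held at least 1 interval and 93 (3.91%) held at least 3. Windows in assembly gaps, which cannot hold an interval, were counted as empty, which lowers these shares. Within 5 Mb the difference was smaller: the median of the 94 other windows was 1 (quartiles 0 and 2.75), and 24 held at least 3. The adjoining windows held 5 and 6. The density was 28.6 per Mb at the locus, 20.2 in the surrounding 5 Mb on each side and 5.57 on the chromosome. S100A2 thus lay in an interval-rich neighbourhood and held fewer intervals than the windows on either side of it. It belongs to a cluster of S100 genes: the gene table lists S100A5, S100A4 and S100A3 before it and S100A16, S100A14 and S100A13 after it, so the 3 intervals need not belong to S100A2.

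**Figure D2:**
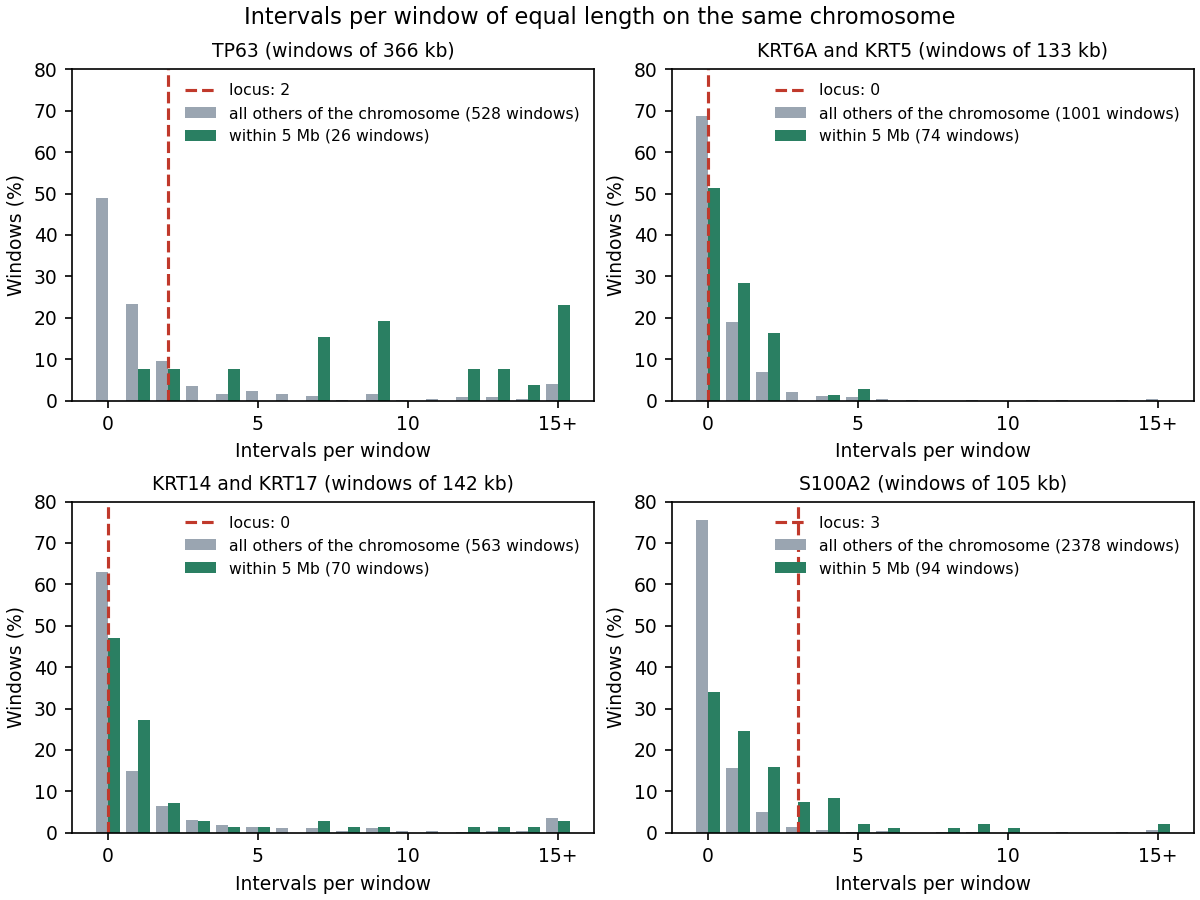
Share of windows (%) by the number of intervals they hold, for windows as long as each locus window; grey bars are all other windows of the chromosome, green bars those within 5 Mb, counts of 15 or more are joined, and the dashed line is the locus. TP63, at 2, lies above the median of chromosome 3 but below most windows within 5 Mb, and both keratin loci are at the commonest value of 0. S100A2, at 3, lies in the upper tail of chromosome 1, but 24 of the 94 other windows within 5 Mb also hold at least 3.

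Width is the sole measure the list gives beside position. Both TP63 intervals, at 432 and 496 bp, were narrower than the median of 561 bp of the other 1344 intervals of chromosome 3 (quartiles 403 and 808 bp). The S100A2 intervals spread more widely around the median of 568 bp of the other 1386 intervals of chromosome 1 (quartiles 400 and 842 bp). The one of 513 bp was below it, the one of 881 bp above the upper quartile, and the one of 1596 bp ranked 67th of 1389, with 4.82% of the chromosome at least as wide. In all, 2 of the 5 intervals reached the list's median width of 585 bp, and both of these were beyond the 3' end of S100A2. With 2 and 3 intervals, the loci's widths are described and not tested.

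**Figure D3:**
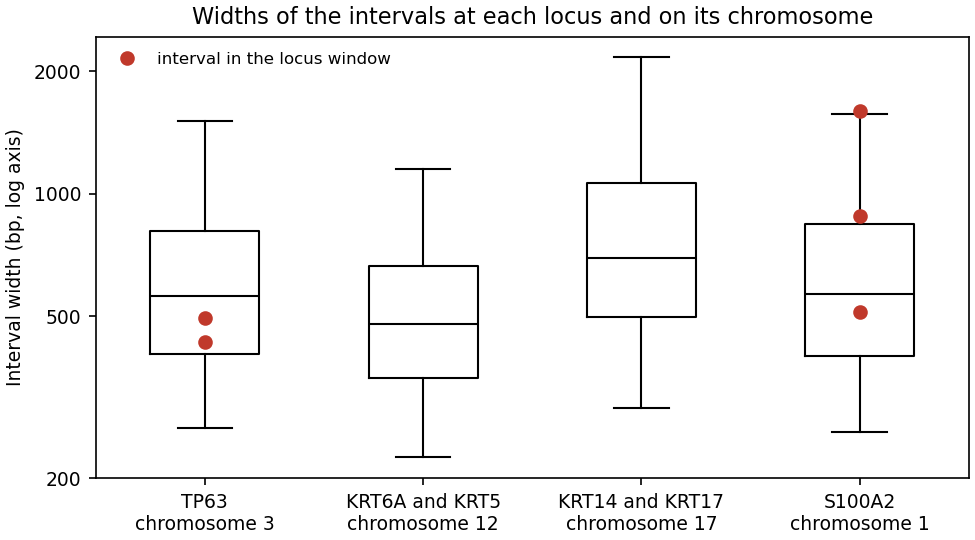
Interval width in bp (log axis) of the intervals in each locus window (red points) beside the other intervals of the same chromosome (box: median and quartiles; whiskers: 5th and 95th percentiles). The TP63 points, 432 and 496 bp, lie below the median of chromosome 3, the S100A2 points run from 513 to 1596 bp, and the keratin loci have no point.

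Intervals covered 928 bp of the TP63 window (0.254%) and 2990 bp of the S100A2 window (2.86%). Over the 4 windows together, 746 kb, the 5 intervals covered 3918 bp, at 6.7 intervals per Mb. This density was within the range of the 4 chromosomes, 4.78 to 13.4 per Mb. It was near the lower end of the range of the surrounding 5 Mb on each side, 6 to 35.1 per Mb. Of the gene spans themselves, TP63 alone held an interval. Its span is also the longest, 266 kb against 33.3 kb (KRT6A and KRT5), 42.4 kb (KRT14 and KRT17) and 4.72 kb (S100A2). Spans of equal length were not counted, so this does not set TP63 apart.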

How the data were processed

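Per the labels, the 4 libraries were CUT&RUN of GATA4 in PaTu8988S. The authors deposited 1 list of intervals (other values: chromosome, start and end position in bp) common to the 4 libraries; SEACR and HOMER with build hg19 are named per the submitters' processing notes, and no version, parameter or rule for calling an interval common is stated there. Depth is unknown.

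The hg19 spans of the genes came with the definition of the loci. Loci, gene lists and windows were chosen with earlier results of these data known. An interval belonged to a locus if it overlapped the window by 1 bp or more, and width is end minus start. Windows of equal length were laid end to end outward from each locus, between the first and last interval of its chromosome. Assembly gaps were not removed, so windows in them count as empty. This raises the shares of empty windows and lowers the shares of windows with intervals. Gene order, strand and promoters came from RefSeq tables of GRCh38.p14, where all 6 genes matched by symbol in the gene table and 3 in the promoter table. Other basal-like genes were not counted, for want of an hg19 annotation. All 6 genes and all 5 intervals are named, under a rule that named all intervals up to a limit of 30. That rule kept promoters unprinted unless an interval lay near a gene start; the TP63 stretch shown is an exception, chosen after the values were seen. Counts were made in Python 3.11.15 with pandas 2.3.3 and numpy 2.4.6, Wilson intervals with scipy 1.17.1 and plots with matplotlib 3.10.9; the counting was tested on simulated data.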

Additional observations from a re-analysis of the deposited data

How the results depend on the processing

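Of 52 recomputed values, 33 stayed close and 19 moved further. Close means within 1.5 times (counts), within 1 SD (widths) or within the 95% Wilson interval of the share. Counts, widths and shares have no sign, so a reversal could not occur. A move can still change the reading: the TP63 share of windows with at least as many intervals was 28% on the chromosome but 92.6% within 5 Mb. With 100 kb on each side the keratin loci held 1 (KRT6A and KRT5) and 2 (KRT14 and KRT17) intervals, and S100A2 8. TP63 held 0 intervals at or above the median width, which makes its share of windows with at least as many 100%. That share for TP63 was 92.6% within 5 Mb, 54.6% among windows with an interval and 23.4% with 100 kb; for S100A2 it was 26.3%, 15.9% and 2.22%. The share of empty windows for KRT6A and KRT5 was 52% within 5 Mb (the locus included), 86.6% for the wider intervals and 77.9% with 25 kb; with 100 kb, 77.8% held no more than its 1. For KRT14 and KRT17 these were 47.9%, 78.2%, 70.8% and, holding no more than 2, 79.4%. The share of windows holding no more than a keratin locus was added after seeing the data. A list pooled by the authors could not be split, so leaving out each library was not run. No paired analysis was possible because there is 1 group and 1 pooled list. Depth being unknown, an empty window means that the list names no shared interval in it, not that GATA4 is absent.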
